A study of Bos taurus with 18 samples.

Results

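The circRNAs of 5 host genes that act in DNA repair and cell division, ATM, REV3L, ERCC6, TTK and VRK1, were followed across 9 wells of MAC-T cells. Every circRNA annotated to these genes was taken, which gave 17 of 3914 circRNAs and 5 of 2220 host genes, and 14 of 5966 well-by-well m6A peaks. The 5 genes were selected from measured values of these libraries, so their reads and peaks are given as a description and no test of them is read as a result.

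MAC-T is a bovine mammary epithelial cell line that was immortalized in culture. Cells were seeded at 200000 per well, grown for 12 h and then kept for 24 h with inactivated *S. aureus* at a multiplicity of infection of 10, with inactivated *E. coli* at the same multiplicity, or without bacteria as the untreated control group, with 3 wells per group. Each well gave an input library and an IP library enriched with an antibody against m6A, and the wells are replicate wells of 1 line, so the spread below is a spread between wells. A circRNA is a transcript closed into a ring by a back-splice junction, and it is counted here by the input reads that cross this junction, called junction reads.

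The input libraries held 384, 361 and 402 junction reads in the *S. aureus* wells, 919, 962 and 909 in the *E. coli* wells, and 1529, 1714 and 2057 in the control wells. The IP libraries held 27 to 29 peaks in the *S. aureus* wells, 645 to 857 in the *E. coli* wells and 1138 to 1358 in the control wells. Junction reads and peaks thus ranked the groups alike, and the part of these totals in the differences below was not tested. Of 12 mammary epithelial marker genes, 1 (CDH1) was a circRNA host, and 0 of 12 marker genes of fibroblasts, endothelial cells and leukocytes were hosts. Linear RNA was not measured in these tables, so the cell label could not be checked by it.

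The 5 proteins have separate roles in keeping the genome intact. ATM is a kinase that responds to broken DNA and starts checkpoint signalling. ERCC6, also called CSB, brings repair factors to RNA polymerase stalled at damaged bases, and REV3L is the catalytic subunit of DNA polymerase zeta, which copies past such bases. TTK, also called MPS1, is a kinase of the spindle assembly checkpoint, and VRK1 is a nuclear kinase that phosphorylates histone H3 and the chromatin protein BANF1. m6A is a methyl mark on adenosine in RNA, laid down by a methyltransferase complex and read by YTH domain proteins.

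The 17 circRNAs were rare in every well. They gave 1 junction read in the 3 *S. aureus* wells together, 18 in the *E. coli* wells and 20 in the control wells. By well, the sums were 0, 1 and 0 in *S. aureus* wells, 5, 12 and 1 in *E. coli* wells and 3, 11 and 6 in control wells. Of the 17, *S. aureus* wells held 1, *E. coli* wells 8 and control wells 9, and 1 of them, a VRK1 circRNA, was seen in both *E. coli* and control wells. The table as a whole ranked the groups in the same order. A library held 216 to 251 circRNAs in *S. aureus* wells, 469 to 538 in *E. coli* wells and 780 to 1015 in control wells. Little overlap between groups was also general, since 85.9% of all circRNAs were seen in 1 library. In the bulk RNA of a well, fewer cells with a circRNA and fewer copies per cell cannot be told apart.

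Per 1000 junction reads of the library, the 5 genes together averaged 0.923 ± 1.60 in *S. aureus* wells, 6.34 ± 5.74 in *E. coli* wells and 3.77 ± 2.35 in control wells (SD, n = 3 each). The 3 groups overlapped, and *E. coli* well 2 alone held 12 of the 18 *E. coli* reads. Without that well the *E. coli* group stood at 3.28 reads per 1000, and the ratio of mean shares of *E. coli* over control was 0.869, against 1.68 with it. For the pooled reads of a group, the exact 95% Clopper-Pearson interval was 0.0221 to 4.85 per 1000 in *S. aureus* wells, 3.83 to 10.2 in *E. coli* wells and 2.31 to 5.82 in control wells. At the control share, the 1147 junction reads of the *S. aureus* group would have held 4.33 reads of these genes, where 1 was found. Per junction read, the *S. aureus* and control groups were therefore not told apart by these counts. The choice of scale mattered, because the *S. aureus* libraries held fewer junction reads for their sequenced reads. Per 1000000 clean input reads, with library totals as given by the study, the 5 genes averaged 0.00443 ± 0.00768 in *S. aureus* wells, 0.0946 ± 0.0862 in *E. coli* wells and 0.0913 ± 0.0611 in control wells (SD, n = 3 each). On this scale the highest *S. aureus* well (0.0133) lay below the lowest control well (0.0410), and the ratio of *S. aureus* over control was 0.0485, against 0.245 per junction read.

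These intervals and the limits for a count of 0 pool the 3 wells of a group. They cover counting error only and leave out the spread between wells. They also treat each read as an independent molecule, which is not given for reads without molecular identifiers. Junction counts of 2 or more were even in 2186 of 2507 cases over the whole table (87.2%). Counts of 4 outnumbered counts of 3 in all 9 libraries. Among the 17 circRNAs, 12 of 13 such counts were even. Whether both reads of a pair were counted is not given in the sources used here and was not tested. If they were, a count of 2 would be 1 fragment, and the intervals here would be too narrow.

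**Figure D1:**
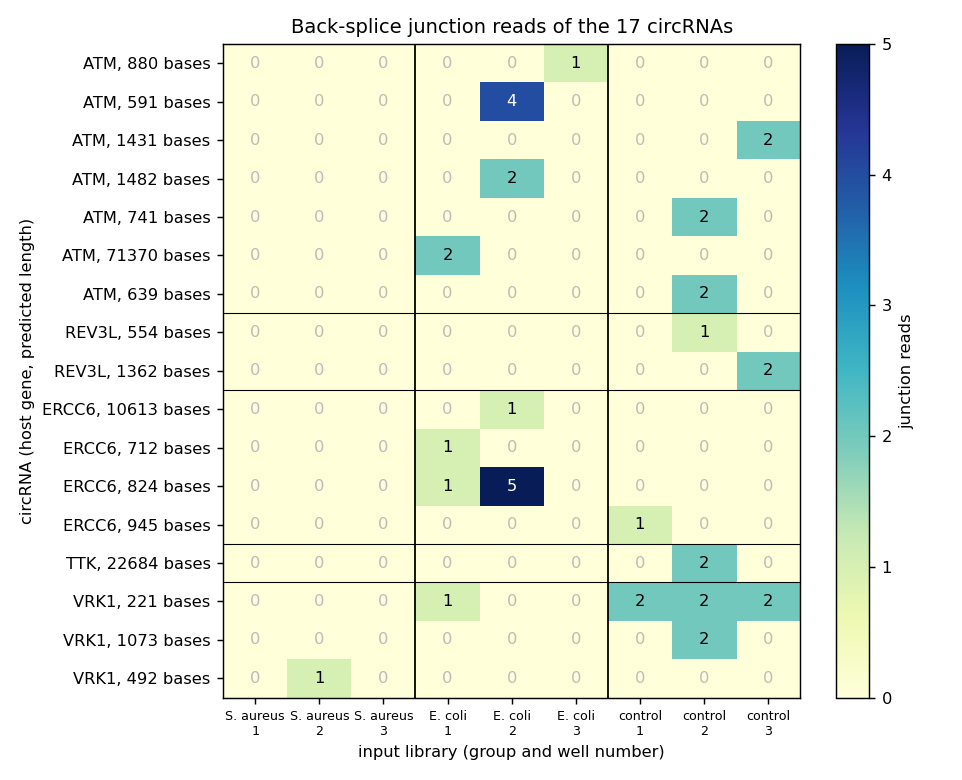
Junction reads of each of the 17 circRNAs (rows, by host gene and predicted length in bases) in each of the 9 input libraries (columns), with the count printed in each cell and shown by colour. The *S. aureus* columns hold 1 read in all, and 15 of the 17 circRNAs have reads in 1 library only.

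Their rarity was that of the table as a whole. Of the 17, 15 were seen in 1 library (88.2%, beside 85.9% of all circRNAs) and 6 rested on 1 read (35.3%, beside 43.8% of all). The authors classed 14 of the 17 as exonic (82.4%, beside 68.0% of all), 2 as sense overlapping and 1 as antisense. The exonic ones had predicted lengths of 221 to 1482 bases with a median of 782.5 bases, and all exonic circRNAs of the table had a median of 533 bases. No circRNA or peak of another gene overlapped any of the 17.

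The repair gene ATM gave the most circRNAs. It hosted 7 with 15 reads in all, and 35 of the 2220 host genes (1.58%) had at least 7 circRNAs, while 85 (3.83%) had at least 15 reads. The median host gene had 1 circRNA and 2 reads. ATM reads numbered 0, 0 and 0 in the *S. aureus* wells, 2, 6 and 1 in the *E. coli* wells, and 0, 4 and 2 in the control wells. The gene was thus read in every *E. coli* well and in 2 of 3 control wells, and these groups overlapped. The 0 reads in the *S. aureus* group allow a share of up to 2.62 per 1000 junction reads. This limit, like those for a count of 0 below, is 3 reads over the group's junction reads, a one-sided 95% limit. It lies above the 1.13 per 1000 of the control group and below the 3.23 per 1000 of the *E. coli* group. The exact 95% interval of that *E. coli* share was 1.48 to 6.11, and the exact two-sided limit for the *S. aureus* group was 3.21, close to 3.23. *E. coli* well 2 held 6 of the 9 *E. coli* reads, and without it the *E. coli* share was 1.64 per 1000, which is below both *S. aureus* limits.

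No ATM circRNA was seen in more than 1 library, so the 7 circles were spread over wells with no ring in common. The ring with the most reads was a 591-base exonic circRNA (bosTau9, chr15:17903127-17905974, plus strand) with 0, 0 and 0 reads in *S. aureus* wells, 0, 4 and 0 in *E. coli* wells, and 0, 0 and 0 in control wells. It was present in *E. coli* well 2 and in no other. The longest was a sense overlapping circRNA (chr15:17924909-17996278) whose predicted length of 71370 bases equals its genomic span. It had 0, 0 and 0 reads in *S. aureus* wells, 2, 0 and 0 in *E. coli* wells, and 0, 0 and 0 in control wells. The other 5 were exonic, 639 to 1482 bases long, with 1 or 2 reads each, 2 of them in *E. coli* wells and 3 in control wells.

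Of the 7 ATM rings, 6 overlapped another along the gene and 3 shared a back-splice end. The 741-base ring shared its upstream end (17924909) with the 71370-base ring and its downstream end (17936195) with the 1482-base ring. The 639-base ring lay inside the 71370-base one and shared neither end with it.

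ERCC6, the transcription-coupled repair gene, hosted 4 circRNAs with 9 reads. Its reads numbered 0, 0 and 0 in the *S. aureus* wells, 2, 6 and 0 in the *E. coli* wells, and 1, 0 and 0 in the control wells. Reads were present in 2 of 3 *E. coli* wells and in 1 of 3 control wells, and the groups overlapped because *E. coli* well 3 had none. The pooled shares were 2.87 per 1000 in the *E. coli* group, with an exact 95% interval of 1.24 to 5.64, and 0.189 per 1000 in the control group, with an interval of 0.00478 to 1.05. Of the 8 *E. coli* reads, 6 came from well 2, and without it the *E. coli* share was 1.09 per 1000. The 0 reads in the *S. aureus* group allow up to 2.62 per 1000.

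The 3 exonic ERCC6 rings formed a nested set on the minus strand of chromosome 28. All 3 shared the downstream end at 43689593, and their predicted lengths were 712, 824 and 945 bases. The shortest (chr28:43689593-43690304) had a genomic span equal to its length, so by this annotation it holds no intron. It had 0, 0 and 0 reads in *S. aureus* wells, 1, 0 and 0 in *E. coli* wells, and 0, 0 and 0 in control wells. The 824-base ring (chr28:43689593-43695166) is 112 bases longer and had 0, 0 and 0 reads in *S. aureus* wells, 1, 5 and 0 in *E. coli* wells, and 0, 0 and 0 in control wells. Its count of 5 was the highest of any of the 17 circRNAs in any library. The 945-base ring adds 121 bases and had 1 read, in control well 1. The remaining circRNA, antisense to ERCC6 and 10613 bases long, had 1 read in *E. coli* well 2.

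VRK1 was the only gene of the 5 with reads in all 3 groups, and 8 of its 10 reads came from control wells. It had 0, 1 and 0 reads in the *S. aureus* wells, 1, 0 and 0 in the *E. coli* wells, and 2, 4 and 2 in the control wells. On raw reads no treated well reached the lowest control well. Per 1000 junction reads the groups overlapped, because the single reads of *S. aureus* well 2 and *E. coli* well 1 stood for 2.77 and 1.09 per 1000 in those libraries with fewer junction reads, against 0.972 to 2.33 in the control wells. Per 1000000 clean input reads they did not overlap, with at most 0.0133 in *S. aureus* wells and 0.0163 in *E. coli* wells, against 0.0245 to 0.0579 in control wells. The group means per 1000 junction reads were 0.923 ± 1.60 in *S. aureus* wells, 0.363 ± 0.628 in *E. coli* wells and 1.54 ± 0.709 in control wells (SD, n = 3 each).

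The 221-base exonic VRK1 ring (chr21:61676138-61681024, plus strand) recurred more than any other of the 17. It had 0, 0 and 0 reads in *S. aureus* wells, 1, 0 and 0 in *E. coli* wells, and 2, 2 and 2 in control wells. It was the only one of the 17 read in all 3 wells of a group. At the control share, 1.30 reads would have been found in the *S. aureus* group, so per junction read the 0 reads there were not told apart from the control share. A 1073-base ring started at the same upstream end and had 2 reads in control well 2. A 492-base ring closed at the downstream end of the 1073-base one (61701954) and gave the single *S. aureus* read. The 2 short rings thus sat at the 2 edges of the long one, and its predicted length exceeded their sum by 360 bases.

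Shared back-splice ends were common among these genes and over the table. Of the 16 circRNAs whose host gene had several, 9 shared an end with another ring of the same gene (56.3%), 3 each for ATM, ERCC6 and VRK1, and 996 of 2351 did so over the table (42.4%). Rings that share an end are counted together, so the 9 are not independent and no difference from the table is read.

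REV3L and TTK were read in control wells only. REV3L, the translesion polymerase gene on chromosome 9, hosted 2 exonic rings of 554 and 1362 bases that gave 0, 0 and 0 reads in the *S. aureus* wells, 0, 0 and 0 in the *E. coli* wells, and 0, 1 and 2 in the control wells. TTK hosted 1 sense overlapping ring (chr9:19722613-19745296, plus strand, 22684 bases) with 0, 0 and 0 reads in *S. aureus* wells, 0, 0 and 0 in *E. coli* wells, and 0, 2 and 0 in control wells. The 0 reads of the *E. coli* group allow up to 1.08 per 1000 junction reads and those of the *S. aureus* group up to 2.62. Both limits lie above the control shares of 0.566 per 1000 for REV3L and 0.377 per 1000 for TTK, so per junction read no difference was detectable for either gene.

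**Figure D2:**
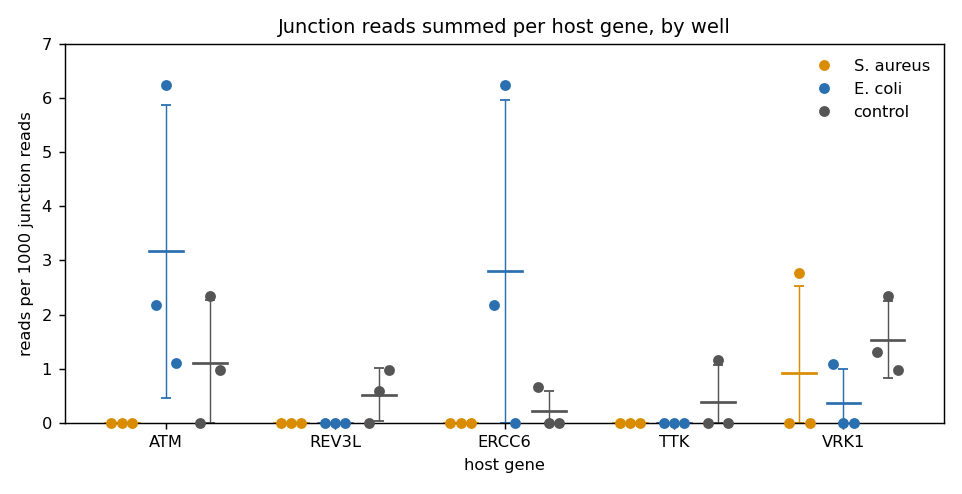
Reads per 1000 junction reads of the library, summed over the circRNAs of each host gene, for the 3 wells of each group (points), with the group mean (short line) and SD (thin bar, cut off at 0). *E. coli* well 2 gives the highest point of both ATM and ERCC6, at 6.24, and VRK1 is the only gene with a point above 0 in all 3 groups.

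The order of the genes by pooled share differed between the groups. In the *E. coli* group it was ATM (3.23 per 1000), ERCC6 (2.87) and VRK1 (0.358), with REV3L and TTK at 0. In the control group it was VRK1 (1.51 per 1000), ATM (1.13), REV3L (0.566), TTK (0.377) and ERCC6 (0.189). Neighbours in either order had overlapping exact intervals.

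Across all 9 input libraries, ATM resembled most closely, by the cosine of reads per 1000 junction reads, the zinc finger gene HIVEP3 (0.978) and the chromatin gene MORC3 (0.977), out of 180 host genes with at least 10 reads. HIVEP3 had 0, 0 and 0 reads in *S. aureus* wells, 4, 8 and 1 in *E. coli* wells, and 0, 7 and 0 in control wells. Both neighbours had their highest counts in *E. coli* well 2, and MORC3 had 2, 7 and 0 reads in the *E. coli* wells. Among the genes closest to VRK1 was the chromatin remodeller ATRX (0.872). ATRX had 0, 2 and 0 reads in *S. aureus* wells, 4, 3 and 2 in *E. coli* wells, and 6, 6 and 3 in control wells. The genes compared share their libraries, and ERCC6, REV3L and TTK had too few reads for this measure.

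Only a small part of the reads could enter a test across the table. A floor of 2 reads, reached in 3 or more libraries, kept 2 of the 5 host genes (ATM and VRK1, among 205) and 1 of the 17 circRNAs (the 221-base VRK1 ring, among 79). Counts were set beside the shares of all features that passed the thresholds of the study, a fold change of at least 2 and an unadjusted p of at most 0.05. Neither host gene passed in *S. aureus* against control, where 19% of host genes did, nor in *E. coli* against control, where 7.8% did. The VRK1 ring passed as lower in *S. aureus* than in control, where 16.5% of circRNAs passed, all of them lower. It met the floor only by its 2, 2 and 2 control reads, which favours a call as lower. The call was kept in 4 of 13 other settings and was lost with total junction reads alone. The study also listed this ring as down in *S. aureus*, but reported far more circRNAs up than down there. In *E. coli* against control the ring did not pass, where 8.86% did. None of the 3 was called at an adjusted p under 0.05, as were 0.488% of host genes in *S. aureus* against control and 0% in the other 3 sets. DESeq2 called no host gene or circRNA at that limit in either comparison. Nothing is read from these calls for the 5 genes, since they were picked with the values in view.

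The m6A peaks fell on 4 of the 17 circRNAs (23.5%, beside 27.7% of all circRNAs), in ATM, ERCC6 and TTK. No peak was called on a REV3L or VRK1 circRNA in any well, and none on any of the 5 genes in an *S. aureus* well. Over the table, 33 of the 1086 circRNAs with a peak (3.04%) had one in any *S. aureus* well, so this absence was the rule. The 4 peaks had 3 patterns over the wells. One ERCC6 ring carried a peak in all 3 *E. coli* and all 3 control wells, TTK in all 3 *E. coli* wells and in 0 control wells, and the long ATM ring and a longer ERCC6 ring in control wells only. A value of fold enrichment below is the authors' ratio of IP over input at the peak.

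**Figure D3:**
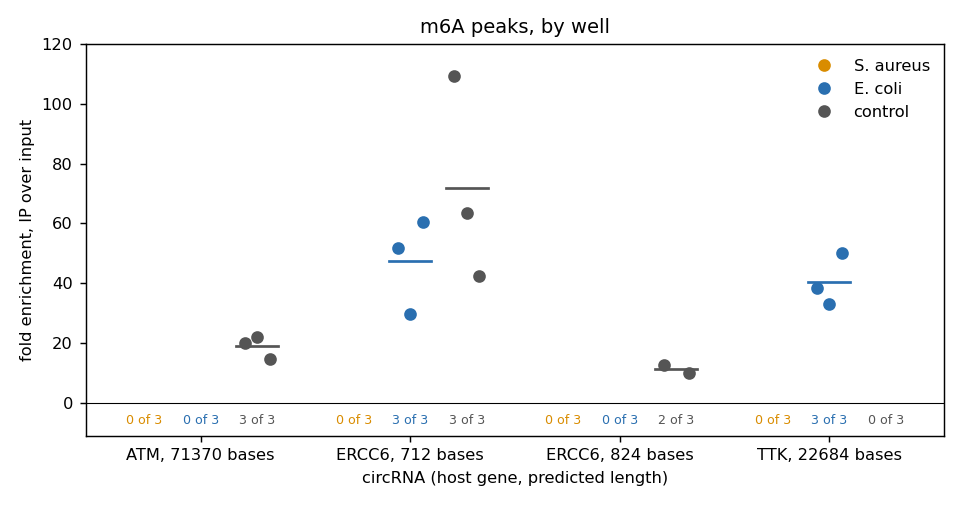
Fold enrichment of IP over input for the peaks on 4 circRNAs, with 1 point for each well in which the peak was called, the mean of these wells as a line, and the number of wells with a peak printed under each group. TTK has peaks in *E. coli* wells only, the 712-base ERCC6 ring in *E. coli* and control wells, and no ring has one in an *S. aureus* well.

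The strongest peak covered the whole 712-base ERCC6 ring, from its first to its last base, in each of 6 wells. Fold enrichment was 52.0, 29.6 and 60.6 in the *E. coli* wells (47.4 ± 16.0, SD, n = 3), against 109, 63.4 and 42.5 in the control wells (71.7 ± 34.2, SD, n = 3). The 2 groups overlapped. Within its own library, the peak ranked above 92.0% to 97.9% of the peaks in control wells and above 42.5% to 83.3% in *E. coli* wells. Peaks that span their whole circRNA made up 17.8% of all peaks. The ring itself was seen by 1 junction read, in *E. coli* well 1. A circRNA with peaks in all control wells and in 0 of 3 *S. aureus* wells was common, at 62% of the 1086 circRNAs with any peak, and 356 of these 1086 (32.8%) had the very pattern of this ring, 3 *E. coli* and 3 control wells and no *S. aureus* well.

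A second ERCC6 peak lay on the 824-base ring (chr28:43695055-43695166). It was called in 0 of 3 *S. aureus* wells, 0 of 3 *E. coli* wells and 2 of 3 control wells, where fold enrichment was 12.8 and 10.1. Of the 1086 circRNAs with a peak, 78 (7.18%) had this pattern. The peak was weak, level with or above 7.03% and 13.6% of the peaks of these libraries, with false discovery rates of 89.7% and 62.5%. Its 112 bases are the stretch at the upstream end of the 824-base ring, and they equal the length by which that ring exceeds the 712-base one. In control wells 2 and 3, where both were called, the 2 peaks together therefore filled the 824 bases of the longer ring. The authors assigned each peak to 1 circRNA, so a read at 43689593 to 43690304 could come from any of the 3 nested rings or from linear ERCC6 RNA left after circRNA enrichment, and these sources cannot be told apart here.

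The ATM peak lay near the downstream end of the 71370-base ring and was called in control wells only. It spanned 17989347 to 17994270 in control well 1, 17990347 to 17992920 in well 2 and 17991024 to 17994289 in well 3, with 1897 bases in common. Fold enrichment was 20.1, 22.1 and 14.5 (18.9 ± 3.92, SD, n = 3), below the median peak of each library. With 2574 to 4924 bases it was wide, since 4.61% of all peaks reached 2574 bases. None of the exonic ATM rings overlapped it. The 3 wells with the peak had no junction read of this ring, and the *E. coli* well with its 2 reads had no peak. Of the 1086 circRNAs with a peak, 10.3% had one in 3 of 3 control wells and in 0 of 3 *E. coli* wells.

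TTK had the rarest pattern. Its peak was called in *E. coli* wells 1, 2 and 3 with fold enrichment of 38.3, 33.2 and 50.2 (40.6 ± 8.70, SD, n = 3), and in 0 of 3 *S. aureus* and 0 of 3 control wells. It spanned 19734333 to 19734633 in well 1, 19734332 to 19734633 in well 2 and 19733944 to 19734638 in well 3, so 301 bases were common to the 3 wells and its edges in wells 1 and 2 differed by 1 base. It lay near the middle of the ring, at least 11331 bases from the upstream end and 10658 bases from the downstream end. Only 3 of the 1086 circRNAs with a peak (0.276%) had one in 3 of 3 *E. coli* wells and in 0 of 3 control wells, and TTK was picked with this known. Its junction reads came from control well 2, which had no peak.

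**Figure D4:**
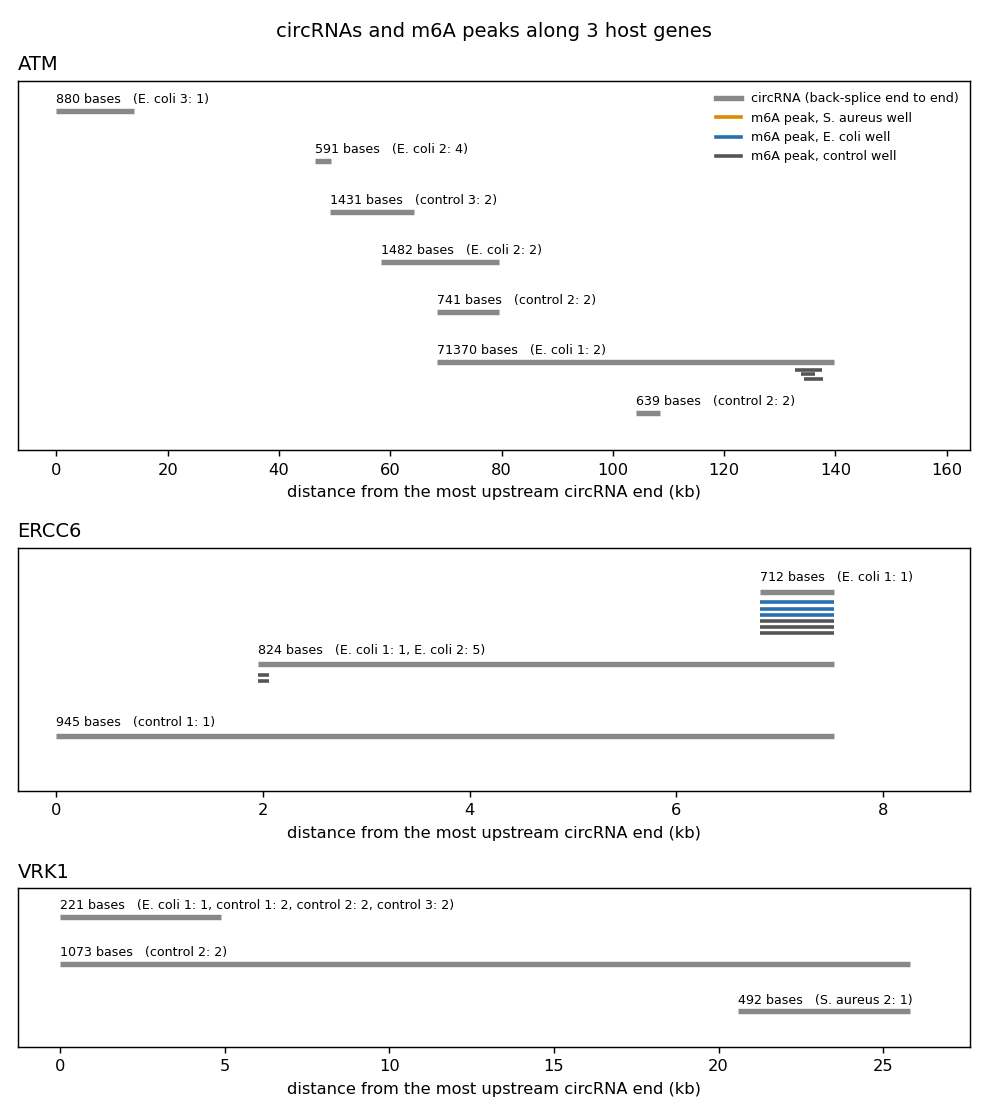
Positions of the ATM, ERCC6 and VRK1 circRNAs (grey bars, back-splice end to end) and of the m6A peaks called on them (coloured bars, 1 for each well) in kb from the most upstream circRNA end of the gene, drawn in the direction of transcription, with the reads of each library in brackets. The antisense ERCC6 circRNA is not drawn. The 3 ERCC6 rings share their downstream end, where 6 peaks cover the 712-base ring.

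Peaks and junction reads seldom met in the same well. Of the 14 peaks on these circRNAs, 1 lay on a ring that was also read in that well's input (7.14%, beside 18.7% of all peaks). The 14 peaks lie on 4 rings, so they are not independent.

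The false discovery rates of the peaks cannot be compared between the groups. They were 1.39% to 4.78% for the 6 peaks in *E. coli* wells and 13.9% to 89.7% for the 8 peaks in control wells. Over all peaks, none in a control or *S. aureus* well had a rate of at most 5%, while 54.7% to 70.1% did in *E. coli* wells. At a limit of 5%, the 6 peaks in *E. coli* wells remained and 0 of the 8 in control wells, so at that limit the peak on the 712-base ERCC6 ring counts in *E. coli* wells only. The scores, which rise as the p-value falls, ran the other way for this ring, at 53.3 to 207 in *E. coli* wells and 1838 to 3100 in control wells.

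The same pathways were read through 200 other genes in 7 lists of DNA repair, checkpoint and mitotic genes. Of these, 50 were circRNA hosts, with 89 circRNAs. They gave 27 reads in *S. aureus* wells, 84 in *E. coli* wells and 136 in control wells. Per 1000 junction reads this was 23.5 in *S. aureus* wells, 30.1 in *E. coli* wells and 25.7 in control wells. Among the 50, 24 carried a peak in some well (48%, beside 40.5% of all host genes). In all 3 wells of a group, 0 did in *S. aureus* (0%, beside 0.811% of all host genes). In *E. coli* 11 did (22%, beside 15.9% of all host genes) and in control 20 did (40%, beside 26.9%).

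In the test across host genes, 6 of the 50 had enough reads. For *S. aureus* against control, 0 of 6 passed the thresholds of the study, beside 19% of all host genes tested. For *E. coli* against control, where 7.8% of all host genes tested passed, 1 of 6 did, as lower. This was BUB1B, the spindle checkpoint kinase that acts beside TTK. It had 2, 0 and 0 reads in *S. aureus* wells, 0, 0 and 0 in *E. coli* wells, and 4, 2 and 4 in control wells. Peaks on its circRNAs were called in 0 *S. aureus*, 2 *E. coli* and 3 control wells. The pooled control share of BUB1B was 1.89 per 1000 junction reads, and 0 reads in the *E. coli* group allow up to 1.08. The control share is given without its counting error, so no lowest fold is drawn from these values. The fitted log2 fold change was -4.55 for *E. coli* against control (edgeR quasi-likelihood test, unadjusted p = 0.0213, adjusted p = 0.494). The call did not pass adjustment, was kept in 12 of 16 other settings, and had adjusted p-values of 0.370 to 0.998 there. These settings refit the same counts. The control wells sufficed for the floor of 2 reads in 3 libraries, and *S. aureus* well 1 also reached 2 reads. No *E. coli* well reached it, and a floor met in this way favours a call as lower. No change is therefore read from the call. No gene of the 7 lists was called at an adjusted p under 0.05 in either comparison.

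The checkpoint list beside ATM had 11 hosts among 31 genes. MRE11, which senses DNA ends for ATM, had 0, 1 and 0 reads in *S. aureus* wells, 0, 0 and 2 in *E. coli* wells, and 0, 4 and 7 in control wells, with peaks in 3 *E. coli* and 3 control wells. Its partner NBN had 0, 0 and 0 reads in *S. aureus* wells, 4, 0 and 0 in *E. coli* wells, and 0, 8 and 0 in control wells, and carried no peak. The related kinase ATR had 0 reads in *S. aureus* wells, 3 in *E. coli* wells and 1 in control wells, also without a peak.

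Few genes of excision repair beside ERCC6 were hosts, 5 of 31, with 1 read in *S. aureus* wells, 3 in *E. coli* wells and 8 in control wells. UVSSA, a partner of the ERCC6 protein in this pathway, had 3 reads, all in control well 1, and peaks in the 3 control wells only. XPA, which binds damaged DNA, had 1 read in *S. aureus* well 2 and 1 in control well 1, and peaks in 3 *E. coli* and 3 control wells. The helicase gene ERCC3 had 2 reads in *E. coli* well 1, 2 in control well 2 and no peak.

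The translesion list beside REV3L had 7 hosts among 21 genes, with 0 reads in *S. aureus* wells, 10 in *E. coli* wells and 21 in control wells. REV1, the scaffold of translesion polymerases, had 0, 0 and 0 reads in *S. aureus* wells, 0, 0 and 4 in *E. coli* wells, and 2, 2 and 0 in control wells. ZRANB3, which remodels stalled replication forks, had 6 reads in control well 3 and peaks in the 3 control wells. POLQ, the gene of DNA polymerase theta, had 1, 0 and 0 reads in *E. coli* wells, 0, 1 and 2 in control wells, and a peak in 1 control well.

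The largest list, homologous recombination and the Fanconi pathway, had 14 hosts among 39 genes with 14 reads in *S. aureus* wells, 42 in *E. coli* wells and 50 in control wells. Its members SMC5, SMC6 and ATRX each had peaks in 3 *E. coli* and 3 control wells and none in *S. aureus* wells. SMC5, of the SMC5/6 complex, had 0, 0 and 8 reads in *S. aureus* wells, 2, 4 and 8 in *E. coli* wells, and 1, 5 and 2 in control wells. The end joining, base excision and mismatch list had 4 hosts among 32 genes, led by the mismatch repair gene PMS1 with 6 reads in control well 2. The DNA glycosylase gene NEIL3 followed with 2 reads and the mismatch repair gene MSH3 with 1, all in control wells.

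Beside TTK, 5 of 35 mitotic genes were hosts, with 2 reads in each treated group and 14 in the control group. After BUB1B, the kinetochore gene KNTC1 had 2 reads in control well 2, and TPX2, a spindle assembly factor that activates the kinase Aurora A, had 2 in *E. coli* well 3. Beside VRK1, the related kinase genes VRK3 and VRK2 were hosts as well. VRK3 had 8 reads, all in control well 3, while VRK2 had 4, 2 and 0 in the *E. coli* wells and none in the other groups. TMPO, which codes for LAP2 proteins of the nuclear envelope, had 2, 0 and 1 reads in *S. aureus* wells, 0, 0 and 3 in *E. coli* wells, and 0, 0 and 1 in control wells. Of the machinery that makes circRNAs and m6A, 8 of 20 genes were hosts. ZC3H13, a subunit of the m6A writer complex, led with 4, 0 and 2 reads in *S. aureus* wells, 4, 2 and 2 in *E. coli* wells, and 3, 2 and 0 in control wells, followed by the demethylase gene FTO with 7 reads and the writer gene VIRMA with 3.

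The size of the change for the tested host genes moved with the scaling. Control libraries held the most junction reads, so the floor of 2 reads was easier to meet there. The part of this in the medians was not tested. The median log2 fold change over the 205 host genes was -1.91 for *S. aureus* against control and -0.53 for *E. coli* against control with TMM normalization. With total junction reads alone it was -0.39 for *S. aureus* against control and 0.00 for *E. coli* against control. On the TMM scale, the 3 tested genes of the recombination list had a median of -2.15 for *S. aureus* against control and -0.46 for *E. coli* against control. These were close to the medians of the 205, but the 3 genes were spread. For *S. aureus* they stood at 0.60 (SMC5), -2.15 (ATRX) and -2.36 (SMC6), and for *E. coli* at 0.995, -0.46 and -1.34.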

How the data were processed

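Input and IP libraries of 9 MAC-T wells were used. Per the authors, cutadapt 1.9.3 trimmed the reads, STAR 2.5.1b aligned them (bosTau9) and DCC found the circRNAs. Raw junction read counts per circRNA were used as deposited, and the 9 columns of normalized log2 values were not used. Peak tables as deposited give the fold enrichment (a ratio), the false discovery rate (percent) and a score for each peak. The caller's settings are not given in the sources used here. Peak starts were shifted to count from 1. Predicted lengths and host genes are the authors'.

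Counts, per circRNA and summed per host gene, were tested with edgeR 4.0.16 in R 4.3.3 (quasi-likelihood test, TMM, Benjamini-Hochberg, 9 libraries in 1 fit). Features needed at least 2 reads in at least 3 libraries. Peaks sharing at least 1 base on a strand were joined. Rows without a gene (3.41% of reads) were left out of host sums. Of 2220 host symbols, 2130 were found among RefSeq genes. Alternatives changed scaling, DESeq2 1.42.0, filters, groups, replicate block, single libraries and peak limits.

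The 5 genes and all lists were chosen with earlier results of these data known. Rings with at least 3 reads or a peak were given well by well. Of each list, the 3 genes with most reads and any passing the study's thresholds were named, and likeness was the cosine over 9 libraries for genes with at least 10 reads. A gene that this rule names beside VRK1 is not reported here.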

Additional observations from a re-analysis of the deposited data

How the results depend on the processing

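Host genes past the study's thresholds numbered 39 for *S. aureus* and 16 for *E. coli* against control, given in this order below. With DESeq2 they were 12 and 2, with total junction reads alone 8 (3 lower, 5 higher, where TMM gave 38 lower and 1 higher) and 14 (10 lower, 4 higher, where TMM gave 15 lower and 1 higher), and with clean input reads 68 and 17. CircRNAs past the thresholds numbered 13 and 7, with DESeq2 3 and 1, with total junction reads 2 and 6, with clean input reads 26 and 9, with a filter of 1 read in 2 libraries 27 and 8, and with no filter 22 and 7. At an adjusted p under 0.05, 1 host gene was called for *S. aureus* against control, with DESeq2 0, with no filter 0 and with clean input reads 6.

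Leaving out 1 library gave 6 (without *S. aureus* well 1) to 43 (without *E. coli* well 2) host genes for *S. aureus*, 4 (without control well 1 or 3) to 17 for *E. coli*, and 3 (without *S. aureus* well 1) to 16 and 2 (without control well 1 or 3) to 7 circRNAs. With the well number as a replicate block, 26 and 8 host genes and 9 and 2 circRNAs were called. Deviations of same-numbered wells had correlations of -0.19 to 0.13, so the number was not taken as a pairing.

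Of the 17 circRNAs, 1, 8 and 9 were detected in *S. aureus*, *E. coli* and control wells. With a minimum of 2 reads in a library, 0, 4 and 7 were. Leaving out 1 well gave 0 (without *S. aureus* well 2) to 1, 5 (without *E. coli* well 1 or 2) to 7, and 4 (without control well 2) to 8. Peaks in all 3 wells numbered 0, 2 and 2. At a false discovery rate limit of 5% the control count was 0, and with a fold enrichment above 21.8, the median of control peaks, it was 1. The peak counts of *S. aureus* and *E. coli* wells were the same in every setting run. With clean input reads as library size, the ratio of mean shares over control was 1.04 for *E. coli*, against 1.68 per junction read, and 0.0485 for *S. aureus*, against 0.245. With 361 to 2057 junction reads per library, 1 read is 0.486 to 2.77 per 1000, which limits every value above.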
